A study of Arabidopsis thaliana with 10 samples.

Results

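EXPA15, EXPB3, XTH19 and XTH20 are genes of Arabidopsis thaliana whose proteins loosen or rebuild the primary cell wall, and their transcripts were followed through a synchronised division cycle. They were chosen by name, with earlier results of these data known. Each gene had 1 probe set on the ATH1 array, so the group comprised 4 of the 22746 probe sets that remained after control probe sets were removed. All 4 passed the filter on mean signal described below, as did 13647 probe sets in all. The cells were MM2d, a fast-dividing suspension line kept in continuous darkness, in MS salts with sucrose, the auxin NAA and kinetin. Every sample shared the same treatment. Early stationary cells, a week after subculture, were diluted into fresh medium and held for 24 h with 4.16 ug/ml aphidicolin, an inhibitor of replicative DNA polymerases. The drug was then washed out through a nylon net and by gentle centrifugation. Total RNA was sampled at 0, 2, 4, 6, 8, 10, 12, 14, 16 and 19 h after release, with 1 array for each time and no replicate. The culture was a single line followed over a single course, no untreated culture was analysed here, and the 0 h sample had gone through both the block and the wash.

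Expansins are small secreted proteins that loosen the wall without cutting it. They act where cellulose microfibrils touch each other and the matrix between them, and they are best known from walls of growing cells. Alpha-expansins such as EXPA15 and beta-expansins such as EXPB3 form separate branches of this family. XTH enzymes (xyloglucan endotransglucosylase/hydrolases) cut xyloglucan, the main hemicellulose that coats cellulose in these walls, and join the cut end to another xyloglucan chain or to water. XTH19 and XTH20 are related members of the family, known in Arabidopsis from roots and from the healing of cut stems. In a dividing plant cell, mitosis ends with a new cross wall, and daughter cells enlarge before the next round.

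The values were MAS5 signals, linear intensities of whole probe sets, which were rescaled here so that each array had a 2% trimmed mean of 100. Signals under the 25th percentile of all values, 12.1, were set to that floor before log2 was taken. Median signals of the arrays lay between 35.0 and 43.6. The 2 h array stood apart, with a mean correlation of 0.864 with the other arrays, followed by the 0 h array with 0.912, against 0.926 to 0.946 for the rest. Results are therefore also given without these arrays. The mitotic kinase AUR1 was used as a clock: its signal was 76.2 at 4 h, 555 at 10 h, 532 at 12 h and 203 at 19 h. No marker gene defines a cell suspension. Of the marker genes for other cell types, the root hair expansins EXPA7 and EXPA18 had highest signals of 35.0 and 50.7 and did not pass the filter. The leaf gene RCA, rubisco activase, ranged from 105.5 at 2 h to 299 at 8 h, and LHCB4.1, an antenna protein, from 49.6 at 2 h to 131 at 19 h, and both were called in the time course test described below (limma, adjusted p = 0.0261 and 0.0314). Both were lowest at 2 h, as EXPA15 and EXPB3 were, and as were 29.7% of all tested probe sets, floor ties included. The part of these leaf genes in the results was not tested. Because RNA came from whole cultures, more transcript per cell and more cells with the transcript cannot be told apart.

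From 4 h onwards, all 4 genes were highest at 19 h, the last sample, when AUR1 was well below its own highest signal; 13.1% of all tested probe sets were highest there over these times. Over all 10 times EXPA15, EXPB3 and XTH20 were highest at 19 h, as were 9.42% of all tested probe sets. The exception was XTH19, which was highest at 0 h, as were 13.2%. A time course test (limma, a natural cubic spline fitted with 4 degrees of freedom) called EXPA15, EXPB3 and XTH20 at an adjusted p under 0.05, that is 3 of 4 genes, against 5.57% of tested probe sets. XTH19 was not called, with an adjusted p = 0.0885. Earlier results of these data were known when the genes were chosen, so these counts describe the chosen genes and do not add independent support.

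EXPA15, the alpha-expansin, had signals of 89.2 at 0 h, 46.3 at 2 h, 65.0 at 4 h, 70.0 at 6 h and 74.3 at 8 h. These were followed by 113 at 10 h, 167 at 12 h, 162 at 14 h, 205 at 16 h and 243 at 19 h. Its lowest value was at 2 h, the values at 4, 6 and 8 h lay close together, and every array from 10 h on was above every array before it. The highest signal was 5.26 times the lowest. The fitted curve spanned 2.11 log2 units (limma F test, adjusted p = 0.0104), with a scatter of 0.27 log2 around it (residual SD). Steps from 8 h to 10 h and from 10 h to 12 h, of 0.60 and 0.57 log2, were each larger than this scatter. Those from 4 h to 6 h and from 6 h to 8 h, of 0.11 and 0.09, were within it. In the order of signals, the neighbouring pairs 4 and 6 h, 6 and 8 h, 8 and 0 h, 14 and 12 h, and 16 and 19 h differed by less than the residual SD. The call held with each of the 10 arrays left out in turn, with an adjusted p of 0.000469 to 0.0467, and with 0 h and 2 h left out together (0.000478). It was lost when no filter on mean signal was used (0.0688).

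EXPB3, the beta-expansin, had signals of 149 at 0 h, 59.1 at 2 h, 71.9 at 4 h, 141 at 6 h and 115 at 8 h. They were then 154 at 10 h, 244 at 12 h, 204 at 14 h, 259 at 16 h and 401 at 19 h. Its lowest arrays were those at 2 h and 4 h, and the 19 h array was the highest, at 1.55 times the 16 h value. The highest signal was 6.78 times the lowest. The fitted curve spanned 2.41 log2 units (limma F test, adjusted p = 0.0443) with a residual SD of 0.44. In the order of signals, only the gaps between 4 and 8 h and between 16 and 19 h exceeded that SD, and the other 7 neighbouring pairs did not. The step from 4 h to 6 h was 0.97 log2 and that from 10 h to 12 h was 0.66. The call was close to the threshold: it did not survive leaving out the 4, 8, 10, 12, 14, 16 or 19 h array, with an adjusted p between 0.0659 and 0.17. Those runs called 236 to 401 of all tested probe sets, against 760 with all arrays. The EXPB3 call held when 0 h (0.00154), 2 h (0.0147) or 6 h (0.0195) was left out, and when 0 h and 2 h were left out together (0.00759). It was also lost with 5 spline terms (0.0575), with no filter (0.172) and with no mean trend in the moderation (0.0837).

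XTH20 had signals of 75.0 at 0 h, 77.5 at 2 h, 58.2 at 4 h, 71.9 at 6 h and 64.6 at 8 h. Later they were 61.9 at 10 h, 75.1 at 12 h, 133 at 14 h, 148 at 16 h and 163 at 19 h. Its course was flat up to 12 h, between 58.2 and 77.5, and all 3 late arrays lay above all 7 earlier ones. This order was found in 2.7% of all tested probe sets. The single gap in the ordered signals that exceeded the residual SD of 0.21 was that between 2 h and 14 h, at 0.78 log2. Between consecutive times, the step from 12 h to 14 h was 0.82 log2, or 1.77-fold. It came after AUR1 had passed its highest signal. The fitted range was 1.52 log2 units (limma F test, adjusted p = 0.0278). Leaving out the array at 8, 10, 12, 14, 16 or 19 h ended the call, with an adjusted p between 0.0611 and 0.129, as did dropping the filter (0.0894). With those arrays left out in turn, 236 to 401 of all tested probe sets were called, against 760 with all arrays. The XTH20 call held when 0 h (0.00465), 2 h (0.0057), 4 h (0.0252) or 6 h (0.0352) was left out, and when 0 h and 2 h were left out together (0.00256).

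XTH19 had a signal of 148 at 0 h, and the floor was reached at both 2 h and 4 h, with scaled signals of 11.8 and 12.1. It then stood at 26.3 at 6 h, 28.3 at 8 h, 36.4 at 10 h, 45.4 at 12 h, 61.2 at 14 h, 71.8 at 16 h and 86.8 at 19 h. Its 0 h array was the highest, and from 4 h on the signal was higher at each of the 7 following times. Only 16 of the 13647 tested probe sets, or 0.117%, had such an unbroken order, a property looked at after the gene's values were seen. The signal at 2 h was at least 12.2-fold lower than at 0 h. A drop of over 3 log2 units between these arrays occurred in 27 tested probe sets (0.198%), and with 1 array on each side it has no test. The fitted range was 2.99 log2 units, and the adjusted p of 0.0885 missed the threshold (limma F test). The residual SD of 0.74 was the largest among the 4 genes. The curve lay at 4.74 at 2 h and 3.82 at 6 h, where the log2 signals were 3.60, the floor, and 4.72. The SD therefore holds misfit of the smooth curve as well as scatter between arrays. In the order of signals, only the gaps between 4 and 6 h and between 19 and 0 h exceeded that SD. The result turned on the first arrays: without 0 h the adjusted p was 0.00159, without 2 h 0.0177, and without both 0.00387. This was not particular to XTH19. Of the 13647 tested probe sets, 2901 were called without 0 h, 1844 without 2 h and 1231 without both, against 760 with all arrays. XTH19 was also called with 5 spline terms (0.0382). With each of the other 8 arrays left out in turn it was not called, at 0.0718 to 0.361.

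**Figure D1:**
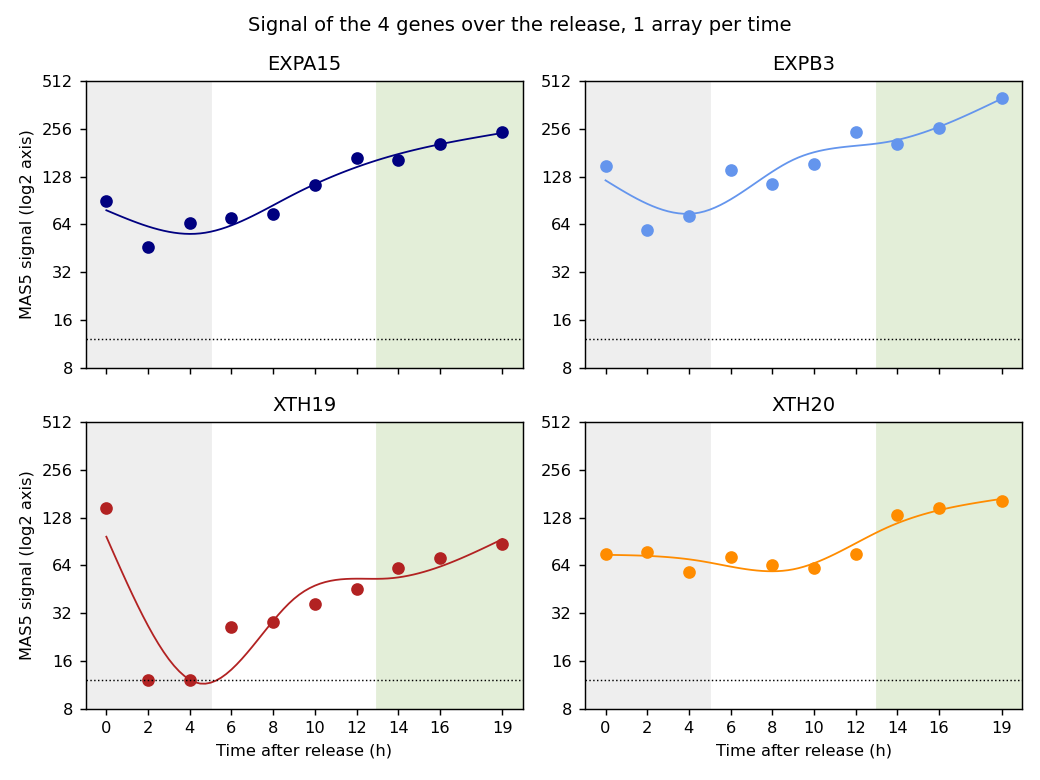
MAS5 signal (log2 axis) of EXPA15, EXPB3, XTH19 and XTH20 against hours after release, with 1 point per array, the fitted spline as a line and the floor of 12.1 dotted; grey marks the early and green the late window. EXPA15 and EXPB3 are higher from 10 h on than at 8 h, XTH20 steps up between 12 h and 14 h, and XTH19 lies at 148 at 0 h and then at the floor, where its 2 h and 4 h points lie.

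The 4 genes thus differed in when their higher signals set in. They also started from unlike levels. At 4 h EXPA15 stood at 26.7% of its 19 h signal, EXPB3 at 17.9%, XTH19 at 13.9% and XTH20 at 35.8%. The 4 h signal of XTH19 was at the floor, so its level there is a bound only. At 10 h, when AUR1 was highest, EXPA15 stood at 46.3%, EXPB3 at 38.5%, XTH19 at 42.0% and XTH20 at 38.0%. For XTH20 this was no rise, as it had stood at 44.2% at 6 h. At 12 h the expansins stood at 68.7% and 61.0% of their 19 h signals, XTH19 at 52.3% and XTH20 at 46.1%. At 14 h both XTH genes stood above both expansins, with XTH20 at 81.6%, XTH19 at 70.5%, EXPA15 at 66.7% and EXPB3 at 50.9%. These percentages rest on 1 array per time, and the differences in timing between genes were not tested. AUR1 itself stood at 36.7% of its highest signal at 19 h.

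**Figure D2:**
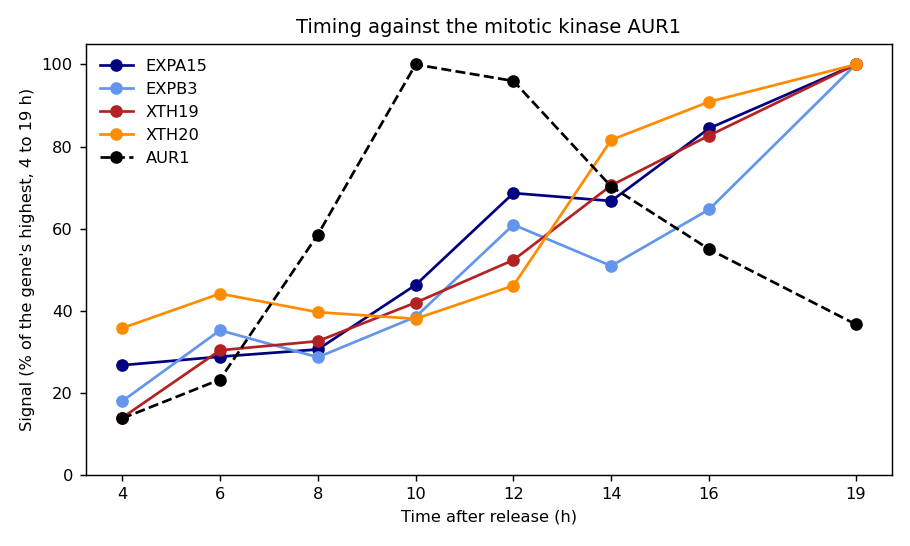
Signal of each gene as a percentage of its own highest signal from 4 h to 19 h, against hours after release, with the mitotic kinase AUR1 dashed; each point is 1 array. AUR1 peaks at 10 h, whereas all 4 wall genes are highest at 19 h. They stand between 13.9% and 35.8% of that at 4 h and between 38.0% and 46.3% at 10 h. The 13.9% is that of XTH19, whose 4 h signal was at the floor.

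For tests between parts of the course, times were grouped into an early window (0, 2 and 4 h), a middle window (6, 8, 10 and 12 h) and a late window (14, 16 and 19 h) and compared in 1 limma fit. Samples of a window are different times of 1 culture and not replicates. The p-values therefore set each difference against the spread of times within windows, which holds change over time as well as noise. Comparing the late with the early window asks what differed between the first hours and the times after the AUR1 maximum. EXPA15 rose by 1.64 log2 units (SE 0.34, adjusted p = 0.0315), or 3.12-fold. EXPB3 rose by 1.69 (SE 0.37, adjusted p = 0.0375), or 3.23-fold. XTH20 rose by 1.08 (SE 0.16, adjusted p = 0.0131), or 2.12-fold. These are 3 of 4 genes called higher, against 2.26% of tested probe sets, and their late and early arrays did not overlap, as in 16.8% of probe sets. As with the time course counts, this describes genes chosen with earlier results of these data known and adds no independent support. Of all calls in this contrast 309 of 554 were higher, and 94 of 394 were with median centring of the arrays, where the 3 genes were still called higher (adjusted p 0.0296 to 0.048). The mean signals (geometric) went from 64.5 to 201 for EXPA15, from 85.8 to 277 for EXPB3 and from 69.7 to 147 for XTH20. XTH19 differed by 1.38 log2 units (95% interval -0.31 to 3.07, adjusted p = 0.304), and its 0 h array lay above all late arrays. The median difference over all tested probe sets was 0.09. Leaf genes moved with these: RCA rose by 0.94 (adjusted p = 0.0227) and LHCB4.1 differed by 0.91 (adjusted p = 0.0573), with late arrays above all early ones in both. Their part in the result was not tested.

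The late against early calls were sensitive to single arrays. EXPA15 lost its call when 2, 10, 14, 16 or 19 h was left out (adjusted p 0.0518 to 0.128), with differences from 1.40 to 1.79. EXPB3 lost it when 2, 8, 10, 14, 16 or 19 h was left out (0.0523 to 0.129), with differences from 1.42 to 1.91. XTH20 lost it when 16 h or 19 h was left out (0.0846 and 0.0621), with differences of 1.08 and 1.01. These losses were not particular to the 3 genes. The runs without 2, 8, 10, 14, 16 or 19 h called 1 to 271 of all tested probe sets, against 554 with all arrays. XTH19 gained a call without the 0 h array, with a difference of 2.57 (limma, adjusted p = 0.00291). In that run 986 of all tested probe sets were called, against 554 with all arrays. When 0 h and 2 h were left out together, the early window was the 4 h array alone, which is assumed to vary like the other windows. There the differences were 1.63 for EXPA15, 1.94 for EXPB3, 2.54 for XTH19 and 1.34 for XTH20. The difference of XTH19 was a lower bound in that setting, because its 4 h signal was at the floor.

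**Figure D3:**
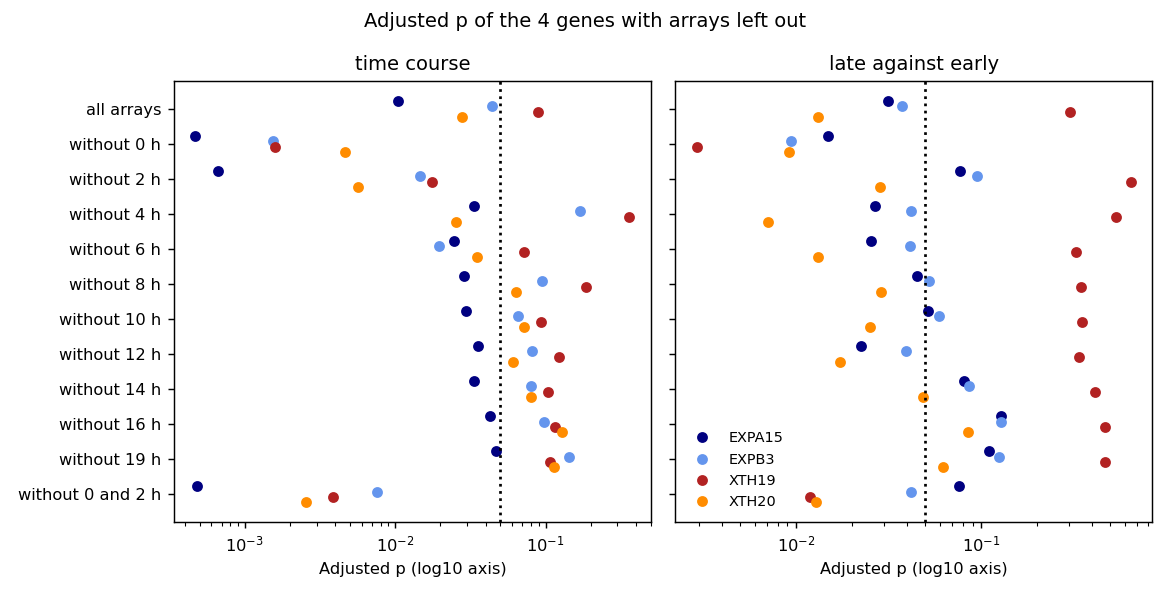
Adjusted p (limma, log10 axis) of the 4 genes in the time course test and in late against early, with all arrays and with arrays left out; the dotted line marks 0.05. EXPA15 stays left of the line in the time course in each of these settings, and XTH19 crosses it when the 0 h array is left out.

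In the late against the middle window no probe set was called (limma, 0 of 13647, or 0%, with 686, or 5.03%, at an unadjusted p under 0.05). The differences of the 4 genes were near the top in this contrast. Because the genes were chosen with earlier results of these data known, this rank adds no independent support. XTH19 differed by 1.12 log2 units (SE 0.72) and XTH20 by 1.11 (SE 0.15), and their late arrays lay above all middle arrays, as in 6.16% of probe sets. EXPA15 differed by 1.01 (SE 0.31) and EXPB3 by 0.82 (SE 0.35), and their 14 h arrays lay below the 12 h array. Between 0.227% and 0.872% of tested probe sets had a larger difference than these genes. XTH20 had an unadjusted p of 1.36e-05 in the limma fit, which became 0.186 after adjustment over all probe sets. The median over all tested probe sets was 0.01.

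In the middle against the early window, 1.13% of probe sets were called, and none of the 4 genes was (limma, 0 called, 1 at an unadjusted p under 0.05, EXPB3, against 21.7% of all probe sets). The differences were 0.62 for EXPA15 (95% interval -0.07 to 1.32), 0.87 for EXPB3 (0.10 to 1.65), 0.26 for XTH19 (-1.33 to 1.84) and -0.03 for XTH20 (-0.36 to 0.30). The interval of XTH20 was the narrowest and lay within 0.37 log2 units of 0, and that of XTH19 was the widest. Without the 0 h array XTH19 was called, with a difference of 1.45 (limma, adjusted p = 0.0262). In that run 496 of all tested probe sets were called, against 154 with all arrays.

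**Figure D4:**
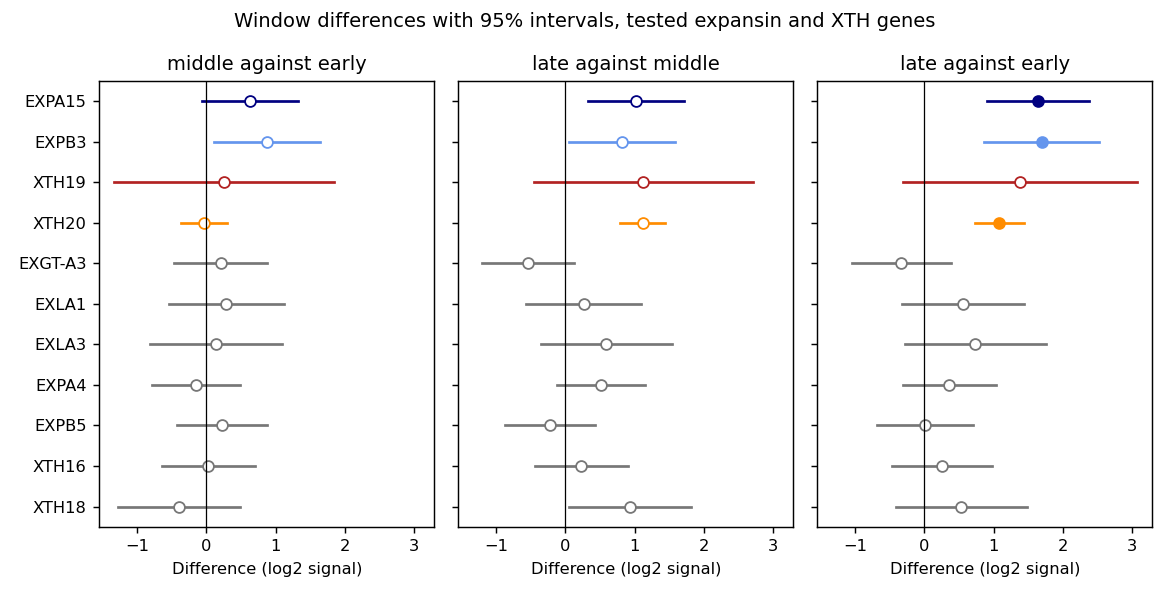
Differences in log2 signal between windows for the 11 tested expansin and XTH genes, with 95% intervals from limma; filled points passed an adjusted p of 0.05. The filled points are EXPA15, EXPB3 and XTH20 in late against early, at 1.64, 1.69 and 1.08.

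The 2 h array was the lowest for EXPA15 and EXPB3, and for XTH19 it shared the floor with 4 h. Over all tested probe sets, 29.7% were lowest at 2 h, floor ties included. From 0 h to 2 h the signal went down by 0.95 log2 units in EXPA15, 1.33 in EXPB3 and at least 3.61 in XTH19. A drop of over 0.9 between these arrays was seen in 8.7% of tested probe sets. XTH20 went against this, with 75.0 at 0 h and 77.5 at 2 h. The 2 h array was also the one least like the others, and its part in these low values was not tested.

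Of the 6 pairs, the expansins had the highest Pearson r over the log2 signals of the 10 arrays, 0.95, and r was 0.94 over the 8 arrays from 4 h on. The XTH genes followed each other less closely over the 10 arrays, with r = 0.57, and r was 0.87 from 4 h on, when the 0 h signal of XTH19 no longer entered. EXPB3 and XTH19 had r = 0.78 over all arrays and the highest r from 4 h on, 0.96. These values describe points that share arrays and a common trend in time, and they carry no test.

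Among 1025 other tested probe sets with a gene symbol, the closest courses to EXPA15 were those of EXPB3 (r = 0.95), SQN, a cyclophilin (0.95), RST1 (0.94), and the endoglucanase family genes GH9B8 (0.94) and GH9C2 (0.93). For EXPB3 they were GH9B8 (0.98), GH9C2 (0.97), EXPA15 (0.95), IGPD, an enzyme of histidine synthesis (0.92), and NDB4, a mitochondrial NAD(P)H dehydrogenase (0.91). GH9C2 went from 138 at 4 h to 940 at 19 h. GH9B8 had 19.6 at 2 h and 102 at 19 h, so both were highest at the same time as the expansins. For XTH19 the closest were TBL39, a member of a family of wall polysaccharide acetyltransferases (0.96), the plastid gene ndhI (0.93), SETH3 (0.91), SGT (0.90) and SCPL45, a carboxypeptidase-like protein (0.89). TBL39 stood at 422 at 4 h and at 1217 at 19 h. For XTH20 they were AGL28, a MADS-box gene (0.90), QQT2 (0.86), LSM1A, a factor of mRNA decay (0.84), the plastid ribosomal protein gene rpl22 (0.84) and IDH-VI, an isocitrate dehydrogenase subunit (0.84). Each r was taken over 10 arrays and was the highest of many, so it is a description only.

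The annotation used here named 29 expansin and XTH genes by a probe set of their own, 19 expansins or expansin-like genes and 10 XTH genes. It listed no gene for 8730 of the 22746 probe sets, so these need not be all such genes on the array. Of the 29 genes, 11 passed the filter on mean signal. Of the 18 that did not, 6 were at the floor on all 10 arrays: EXPA8, EXPA21, EXPA24, AT4G30380, which carries the synonym EXLB2, XTH21 and XTH26. The mean signals of these 18 lay between 0.94 and 25.8. Another 2 probe sets each named 2 expansins and were not used. The probe sets may also detect related genes, which could not be checked without probe sequences.

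Of the 7 tested family genes beyond EXPA15, EXPB3, XTH19 and XTH20, 0 were called in the time course (limma, 2 at an unadjusted p under 0.05, against 24.8% of all tested probe sets). In late against early 0 were called (limma, 0 at an unadjusted p under 0.05), against 4.06% called and 23.7% at an unadjusted p under 0.05 over all. With so few genes these counts do not set the 7 apart from other probe sets. Their median difference from early to late was 0.36 log2 units, against 0.09 over all tested probe sets, and 6 of 7 were positive. The smallest positive one, EXPB5 at 0.005, was exceeded by 58.8% of all tested probe sets, so a positive sign alone was common. XTH18, which lies next to XTH19 in the order of genes of TAIR10.1, had signals of 270 at 0 h, 150 at 2 h, 63.0 at 4 h, 125 at 6 h and 109 at 8 h. They were 106 at 10 h, 80.3 at 12 h, 144 at 14 h, 208 at 16 h and 258 at 19 h. Like XTH19 it was highest at 0 h and next highest at 19 h, but it was not at the floor at 2 h or 4 h. Its late arrays lay above all middle arrays, with a difference of 0.93 (limma, adjusted p = 0.958), and its time course adjusted p was 0.113. The r between XTH18 and XTH19 was 0.72 over 10 arrays and 0.84 from 4 h on.

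EXPA4, another alpha-expansin, was highest at 2 h, at 1977, where EXPA15 was lowest. From 4 h on it went from 706 to 1785 at 19 h, and r with EXPA15 was 0.35 over 10 arrays and 0.94 over the 8 arrays from 4 h. Its time course adjusted p was 0.435 (limma F test). EXLA3, an expansin-like gene, had the lowest time course p of these 7 genes, with a fitted range of 1.74 (adjusted p = 0.0525), and its signals were 454 at 0 h, 118 at 6 h and 380.0 at 16 h. EXLA1 was lowest at 2 h with 403 and stood between 903 and 1587 at the other times. EXGT-A3, also named XTH27, went the other way, from 486 at 4 h to 208 at 19 h, with all late arrays below all middle arrays, as in 4.94% of probe sets, and a difference of -0.54 (limma, adjusted p = 0.958). EXPB5 and XTH16 had low signals throughout, with highest values of 44.5 and 41.1.

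**Figure D5:**
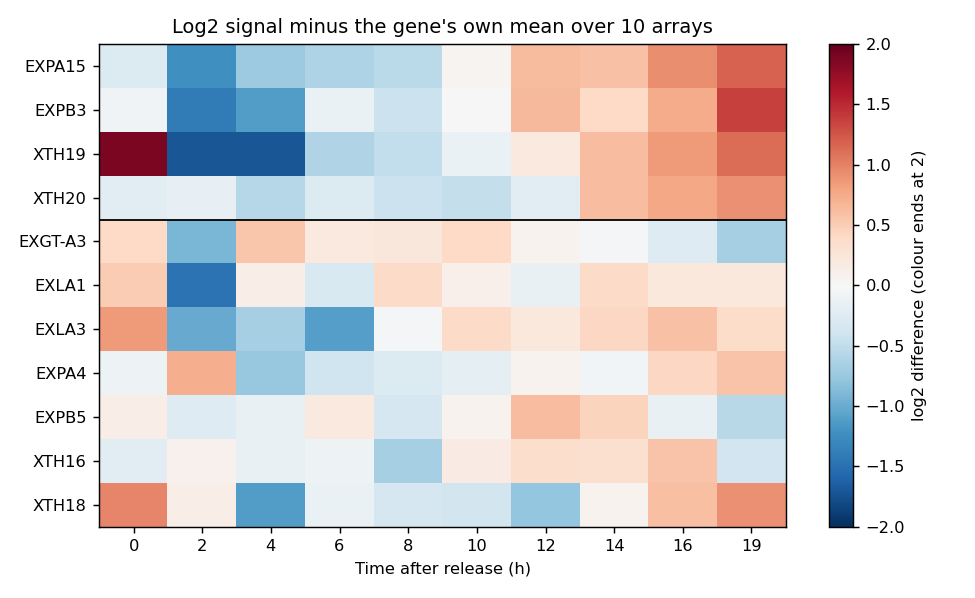
Log2 signal of the 11 tested expansin and XTH genes at each time, minus the gene's own mean over the 10 arrays; red is above and blue below that mean, and each cell is 1 array. EXPA15, EXPB3, XTH19 and XTH20, above the line, are red from 14 h to 19 h, as XTH18, EXLA1 and EXLA3 are, while EXGT-A3 is blue at 16 h and 19 h.

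Other genes of wall polysaccharides were read from lists set by name. The lists did not hold GH9B8, GH9C2 or TBL39, which were highest at 19 h and are named above among the closest courses. The counts below therefore do not cover all wall genes. All 5 genes of the CSLC family, which includes the synthases of the xyloglucan backbone, were tested, and 0 were called in the time course or in late against early (limma, 0 and 2 at an unadjusted p under 0.05, against 24.8% and 23.7% of all tested probe sets). CSLC12 differed most from early to late, by 1.02 log2 units (SE 0.36, adjusted p = 0.126), from 25.5 at 2 h to 113 at 14 h. CSLC5 differed by 0.68 (adjusted p = 0.179) and CSLC6 by 0.26 (adjusted p = 0.348). ATCSLC08 differed by 0.61 (adjusted p = 0.463), and CSLC04, which was highest at 0 h, by -0.024 (adjusted p = 0.972). The median over the 5 was 0.61. All 5 were lowest at 2 h, as EXPA15 and EXPB3 were, and as were 29.7% of all tested probe sets, floor ties included.

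The pectin list matched 7 genes by name, and 3 of them were tested. Of these, 0 were called (limma, 1 at an unadjusted p under 0.05 in late against early, against 23.7% of all tested probe sets). That gene was ATPMEPCRB, a pectin methylesterase, with 18.6 at 12 h, 40.5 at 14 h, 52.9 at 16 h and 56.1 at 19 h. Its difference was 0.90 from early to late (SE 0.32, adjusted p = 0.124). GAUT15, a glycosyltransferase of the galacturonosyltransferase family, was also highest at 19 h, with 52.1, and differed by 0.57 (adjusted p = 0.232). PMEPCRF differed by -0.37 (adjusted p = 0.564). Of 4 genes matched by the list for cellulose and xylan, 3 were tested and 0 were called in any of the tests (limma, 0 at an unadjusted p under 0.05). The called share over all tested probe sets was 5.57% for the time course and 4.06% for late against early. At an unadjusted p under 0.05 these shares were 24.8% and 23.7%. For lists this short, 0 called does not set the CSLC, pectin or cellulose and xylan genes apart from other probe sets. In late against early, GH9A3, an endoglucanase also named KOR3, differed by 0.40 (adjusted p = 0.367), COB by 0.19 (adjusted p = 0.731) and GUT2, a xylan synthesis gene, by -0.01 (adjusted p = 0.977). The names used for arabinogalactan proteins and extensins matched no wall gene on this array's annotation, so that list was not analysed here.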

How the data were processed

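One ATH1 array was analysed for each of 10 times. The deposited intensity values are MAS5 signals per probe set, per the submitters' processing notes; the software version and a genome build are not given in the sources used here. The arrays had been scaled before deposition, with 2% trimmed means of 99.3 to 99.4. Of 22810 probe sets, 64 controls were removed. Gene names came from the platform annotation, updated by Entrez gene ID from a RefSeq table of TAIR10.1 (13436 of 13513 single-gene probe sets matched), which was used for names and gene order only.

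Arrays were rescaled to a trimmed mean of 100 and floored at the 25th percentile, 12.1, before log2. Probe sets above the 40th percentile of mean signal, 26.8, were tested with limma 3.58.1 in R 4.3.3 (eBayes with a mean trend, Benjamini-Hochberg adjustment over all 13647). Code was tested on simulated data. The genes, lists and tests were chosen with earlier results of these data known. Named genes were the 4 genes, all other tested expansin and XTH genes, list members with the lowest p and the 5 closest courses per gene. PGL34, PGY1 and PRP39 matched list names by letters only and were removed. With 1 array per time, the number of arrays limits the precision. Alternatives changed the floor, filter, scaling, moderation, spline, windows and arrays.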

Additional observations from a re-analysis of the deposited data

How the results depend on the processing

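No paired analysis was possible because each time had 1 array and every array carried the same replicate number. The count of 760 probe sets called in the time course was 281 without the filter on mean signal, 462 without a mean trend and 1231 without the 0 h and 2 h arrays, and 236 to 2901 with 1 array left out. It was 2901 without 0 h, 1844 without 2 h and 236 to 492 without 1 of the other arrays. The count of 154 in middle against early was 0 without the filter (limma, 3287 at an unadjusted p under 0.05), 263 with the 60th percentile filter, 102 with median centring, 71 without a mean trend, 92 without the 0 h and 2 h arrays and 52 with 12 h in the late window, and 0 to 1863 with 1 array left out. The split of 71 higher among 154 became 18 among 102 with median centring. The count of 554 in late against early was 245 without a mean trend, 172 without the filter, 266 with 6 h in the early window and 1073 with 12 h in the late window, and 1 to 1739 with 1 array left out. In late against middle the count was 0 in all 21 alternatives (limma). For single genes, the signs that turned were in middle against early, where none of the 4 was called as reported. XTH19 was -0.024 with a pseudocount of 16 and -0.36 to 1.45 with 1 array left out; XTH20 was 0.23 without the 0 h and 2 h arrays and -0.16 to 0.044 with 1 array left out. XTH20 was lost in late against early with 12 h in the late window (adjusted p = 0.0592), EXPB3 with 6 h in the early window (0.0729), without a mean trend (0.0554) and without the filter (0.121), and EXPA15 without the filter (0.0988). XTH19 did not pass the 60th percentile filter and has no value there. In late against middle and late against early no gene changed sign in any alternative run. The time course value is a fitted range, which has no sign. Median differences over all probe sets moved from 0.09 to -0.07 in late against early with median centring, and the 3 calls held there (adjusted p 0.0296 to 0.048). Why the counts moved was not tested. XTH19, at the floor at 2 h and 4 h, is measured there as a bound only.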
